A study of Homo sapiens with 2 samples.

Results

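The sites described here were cytosines at which the RNA bound to FLAG-tagged RBMS3 carried a deletion in its sequenced copies. They were chosen from 1 pooled list of 27706 deletion sites by the base at the deleted position, read on the strand of the RNA, and by the share of overlapping tags that carried the deletion, which had to lie over 1% and under 30%. A tag is a unique sequenced RNA fragment. This gave 539 cytosine sites, 1.95% of the list and 4.29% (95% Wilson interval 3.95 to 4.66%) of the 12568 sites in that range, against 9679 sites (77.0%) with a deleted uracil. Letters below are those of the DNA, so T stands for uracil.

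The study mapped RNA contacts of RBMS3 by CLIP-seq, which joins a protein to its RNA in living cells with ultraviolet light, trims the RNA, recovers the protein with an antibody and sequences what remains attached. The cells were MDA-MB-231, a human triple-negative breast cancer line, made to express FLAG-tagged RBMS3, and were irradiated at 254 nm with 400 mJ/cm2. The only group held 2 biological replicates, and the title of replicate 2 gives MDA-MB-231 whereas its source label gives MDA-MB-232. The list pools both replicates and gives no value for either, and no control library was analysed here, so the intervals below cover the counting of tags or sites only. Sites of 1 gene share their RNA and are not independent.

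Reverse transcriptase tends to skip the base that still carries a remnant of the cross-linked protein, so a deletion that recurs at 1 position marks a likely point of contact. Ultraviolet light joins proteins to uracil most readily and to the other bases less often. RBMS3 belongs to a small family of RNA-binding proteins that hold a pair of RNA recognition motifs and bind AU-rich RNA, mostly in 3′ UTRs. The 3′ UTR ends at the poly(A) site, where the RNA is cleaved and given its tail. This site is set by a hexamer upstream of it, usually AATAAA or ATTAAA.

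The 10 cytosine sites with the most deletions are shown first, since they carry the recurring sequence around the deleted base. Each line gives 14 nt on both sides, 5′ to 3′ on the RNA strand, with the deleted cytosine in capitals and coordinates in hg38.
SSR1, chr6:7287574-7287602, minus: gagaataatgtgttCataaagcatggatc
VIM, chr10:17237558-17237586, plus: acttggttctgcttCaataaatctttgga
PSMC2, chr7:103368112-103368140, plus: gttaataaccaattCataaacaaataaat
RPL15, chr3:23919510-23919538, plus: aagtttgtaaaattCatacttaataaaca
RHEB, chr7:151466763-151466791, minus: tactattaactaggCttcagtatatcagt
H2AZ1, chr4:99948094-99948122, minus: ctggtggataagttCaataaaggtcatat
ERRFI1, chr1:8011744-8011772, minus: gaatattgtcttttCattttaataaagtt
FKBP1A, chr20:1368972-1369000, minus: gtgctttatgccggCttttctcagctctg
ANTXR2, chr4:79905579-79905607, minus: tgtgtccacacattCataaataaaaattt
TM4SF1, chr3:149369015-149369043, minus: caaaataaagtattCactaccatgttgtt
In 8 of these 10 the cytosine followed a pair of uracils and preceded an adenine (TTCA), and in the other two, RHEB and FKBP1A, it lay between a pair of guanines and a uracil (GGCT).

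Of all 539 cytosines, 251 stood in TTCA (46.6%, 42.4 to 50.8%). Among the 3876 cytosines of the same 51-nt windows that were not in the list at any percentage, 151 did (3.90%), so the word was 11.95 times as frequent at deleted cytosines. With a uracil behind it the contrast was larger, since TTCAT held 187 of the deleted cytosines (34.7%) and 51 of the others (1.32%), a ratio of 26.4. The word TTCAA held 44 (8.16%) against 50 (1.29%). GGCT was the next context, with 52 deleted cytosines (9.65%) and 43 others (1.11%), a ratio of 8.70. These words were chosen after their counts were seen, and the counts describe this list without a test. Cytosines next to another cytosine were 1419 of the 3876 others (36.6%) and 76 of the 539 deleted ones (14.1%). Such cytosines cannot stand in these words, and each run of them is listed at only 1 position, as described below. This raises the ratios.

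Other contexts were less frequent at deleted cytosines than at the others, or held few sites. An adenine on each side (ACA) surrounded 19 deleted cytosines (3.53%) and 441 others (11.4%), and a uracil on each side (TCT) surrounded 61 (11.3%) and 505 (13.0%). TCG surrounded 11 (2.04%) and 30 others (0.774%), of which TTCGT made up 9 and 3. No site had the context ACG, CCG or GCG. Cytosines stood alone in 463 sites (85.9%). In the 76 that lay in a run of cytosines the list gave the position with the lowest coordinate, the first base of a plus-strand run and the last of a minus-strand run, so the middle of a longer run was never listed.

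**Figure D1:**
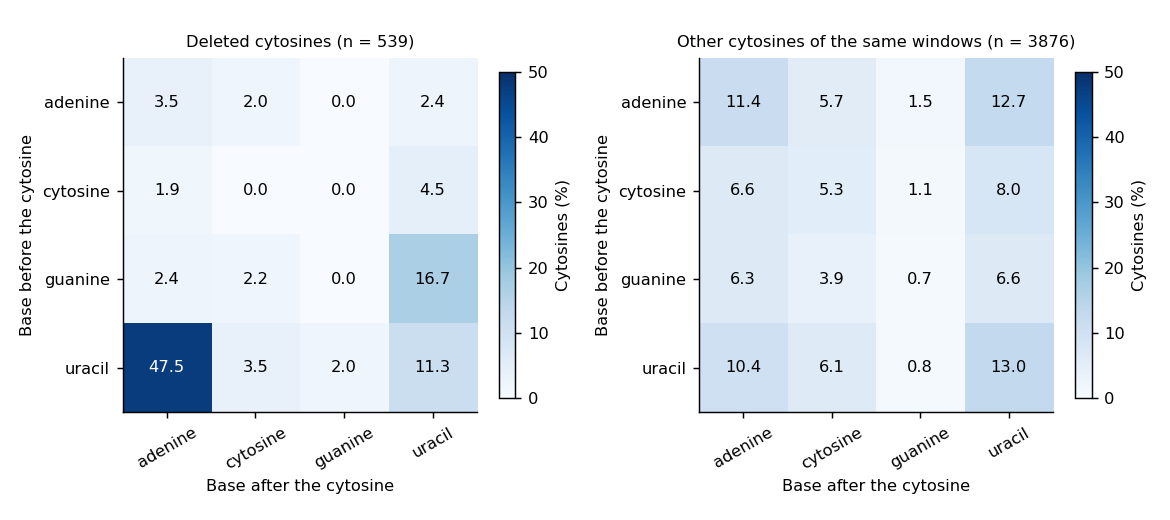
Share of cytosines (%) with each base before (rows) and after (columns), for the 539 deleted cytosines (left) and the 3876 other cytosines within 25 nt of them (right). A uracil before and an adenine after held 47.5% of the deleted cytosines and 10.4% of the others.

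Around the deleted cytosine the base before was uracil in 64.4% of sites and guanine in 21.3%, and the base after was adenine in 55.3% and uracil in 34.9%. Neither base can be compared directly with those next to the uracil sites, because uracil runs are also listed at their lowest coordinate, which puts the rest of the run behind the listed base on 1 strand and before it on the other. The first base beyond the run was adenine at 56.6% of the cytosine sites and 47.1% of the uracil sites, a difference of 9.46 percentage points (95% Newcombe interval 5.13 to 13.7). That base cannot equal the base of the run, which limits this comparison and the next. Uracil followed the run at 41.2% of the cytosine sites and can follow no uracil run. Cytosine followed it at 17.5% of the uracil sites and can follow no cytosine run. Guanine followed it at 2.23% of the cytosine sites and 35.3% of the uracil sites. An adenine and then a uracil followed the run at 213 cytosine sites (39.5%) and 1943 uracil sites (20.1%), a difference of 19.4 points (15.3 to 23.7). The deleted cytosine was also the last base of its stretch of pyrimidines in 57.3% of sites. For uracil sites the share was 40.7%, which cannot be compared directly because it also depends on where runs are listed.

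**Figure D2:**
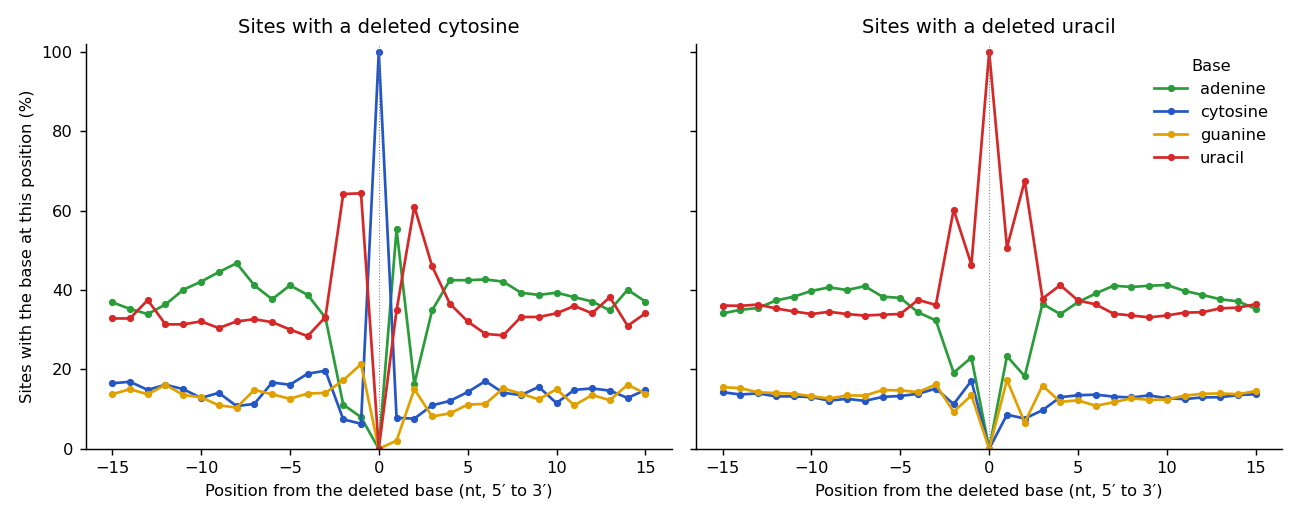
Share of sites (%) with each base at positions from 15 nt before to 15 nt after the deleted base, for the 539 cytosine sites (left) and the 9679 uracil sites (right). The cytosine profile has uracil before the deletion and adenine followed by uracil after it, while adenine is the commonest base at most positions further out.

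The same words were then counted from the other side, as the share of cytosines in a given word that were listed with a percentage in the range. Near uracil sites of the range lay 53276 cytosines, of which 0.488% were listed so. For TTCA the share was 5.41% of 2606 and for TTCAT 11.5% of 918. Where TCA had a base other than uracil before it, the share was 0.0286% of 3493 (1 cytosine). With uracil in place of the adenine, TTCT was listed in 0.588% of 3403, and GGCT was listed in 5.11% of 626. At any percentage the shares were higher, with 1.48% of all these cytosines, 9.40% for TTCA, 16.1% for TTCAT, 2.67% for TTCT, 6.39% for GGCT and 0.344% for TCA without the second uracil. Windows around the 1921 adenine sites, which need neither a cytosine nor a uracil to be found, gave 6.60% of 621 for TTCA, 10.4% of 182 for TTCAT, 0.610% of 656 for TTCT and 0.107% of 937 for TCA without the second uracil. These 4 words had the same order around either base.

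Strand separated the contexts. Counted near sites of any base in the range, the cytosine of TTCAT was listed at 17.6% of 568 plus-strand words (14.7 to 20.95%) and at 17.8% of 489 minus-strand words (14.7 to 21.4%). The cytosine sites are among these sites, so each listed cytosine brought in its own word. This raises the shares on both strands, and near uracil sites alone TTCAT was listed at 11.5% of 918 words. The cytosine of GGCT was listed at 4 of 406 plus-strand words (0.985%, 0.384 to 2.51%) and at 48 of 374 minus-strand words (12.8%, 9.82 to 16.6%). The guanines before it showed the reverse, with 37 plus-strand words listed (9.11%) and 0 on the other strand, which allows up to 1.02% by the Wilson interval. GGCA and AACA leaned the same way as GGCT, with 0 plus-strand and 10 minus-strand sites for the former and 1 and 16 for the latter. The part of deletion placement by the aligner or caller in the GGCT, GGCA and AACA sites was not tested. Over all cytosine sites, TTCA held 54.0% of the 248 on the plus strand and 40.2% of the 291 on the minus strand. These shares also depend on the sites in other contexts, of which GGCT, GGCA and AACA lay mostly on the minus strand. Counted by word as above, the cytosine of TTCA was listed at 134 of 1577 plus-strand words (8.50%) and 117 of 1428 minus-strand words (8.19%).

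**Figure D3:**
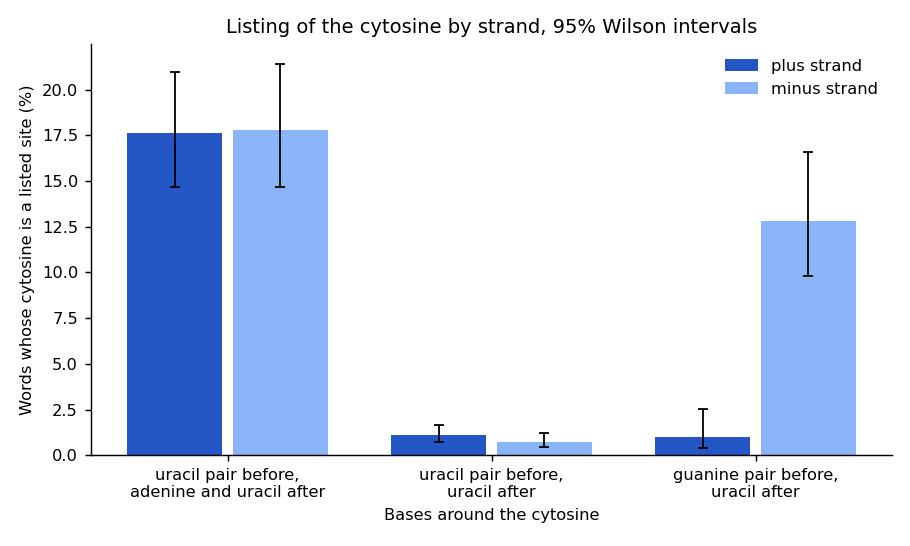
Share (%) of TTCAT, TTCT and GGCT words whose cytosine was a listed site in the range, on each strand, with 95% Wilson intervals as error bars. Words were taken near sites of any base, the cytosine sites included, which raises the shares. The TTCAT bars stand at 17.6% and 17.8%, whereas the GGCT bars stand at 0.985% and 12.8%.

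The uracils next to the cytosine were often deleted as well. Of the 251 TTCA sites, 85 (33.9%) had a listed uracil in the run just before, at any percentage. In 68 of these 85 the cytosine had more deletions, with a median ratio of cytosine to uracil deletions of 2. The rule selected the cytosine by its percentage but not the uracil. A wider count took all 2804 TTCA words near a cytosine or uracil site of the range, with either base listed at any percentage. Only the cytosine was listed in 193, only the uracil run in 566, both in 163 and neither in 1882. Where both were listed in this wider count, the cytosine had more deletions in 88 of 163, with a median ratio of 1.08. None of the 76 cytosine sites with a directly adjacent listed site had the same number of deletions as that site.

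The site with the most deletions lay in SSR1, a subunit of the translocon-associated complex of the endoplasmic reticulum, at chr6:7287588 with 1786 deletions in 42423 tags (4.21%, 4.02 to 4.41%). The uracil before it carried 230 deletions in 42864 tags (0.537%), so most deletions of this word fell on the cytosine. VIM, the intermediate filament protein of mesenchymal cells, had 1588 in 57225 tags (2.78%) at chr10:17237572, and there the adenine that follows was nearly as often lost, with 1168 in 57472 (2.03%). In VIM and in H2AZ1, a histone variant, the cytosine stood directly before the AATAAA hexamer. H2AZ1 had 916 deletions in 43834 tags (2.09%), 20 nt before the annotated end of the transcript.

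PSMC2, an ATPase of the proteasome, carried 1089 deletions in 25788 tags (4.22%), 733 nt from the nearest annotated end. RPL15, a protein of the large ribosomal subunit, had 1013 in 39070 (2.59%) at 13 nt from an end, and ERRFI1, an inhibitor of the EGF receptor, had 805 in 38295 (2.10%) at 31 nt. In ERRFI1 a uracil 5 nt downstream had 668 deletions in 43427 tags (1.54%). ANTXR2, a receptor for anthrax toxin, had 751 in 35178 (2.13%) at 2 nt from an end, and TM4SF1, a membrane protein, had 734 in 60202 (1.22%) at 6 nt. Except for PSMC2, the TTCA sites among these 10 thus lay within 31 nt of an annotated end.

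Both GGCT sites among the leading 10 were on the minus strand. RHEB, the small GTPase that activates mTOR, had 946 deletions in 39091 tags (2.42%) at 765 nt from an end, and FKBP1A, the target of the drug FK506, had 775 in 20907 (3.71%) at 1 nt. All 115 cytosines with a guanine before them, GGCT included, had a median of 70 deletions and 3339 tags, and those between uracil and adenine had 81 and 3958.

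Over all 539 sites the deletions ran from 32 to 1786 with a median of 67, and the tags from 125 to 60202 with a median of 3316. The percentage had a median of 2.18% against 2.87% for uracil sites, and 42.3% of the cytosine sites lay between 1 and 2% against 29.04%. The rule itself used the percentage, so this is a description. At the lower limit the nearest sites outside were ERO1A (0.988%) and GALNT3 (exactly 1%), and the nearest inside were CEBPZOS and TWSG1 (both 1.00%). At the upper limit PRKAG2 (28.8%) and EEF1A1 (29.9%) lay inside and STARD4 (30.1%) and ZHX1 (31.5%) outside.

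**Figure D4:**
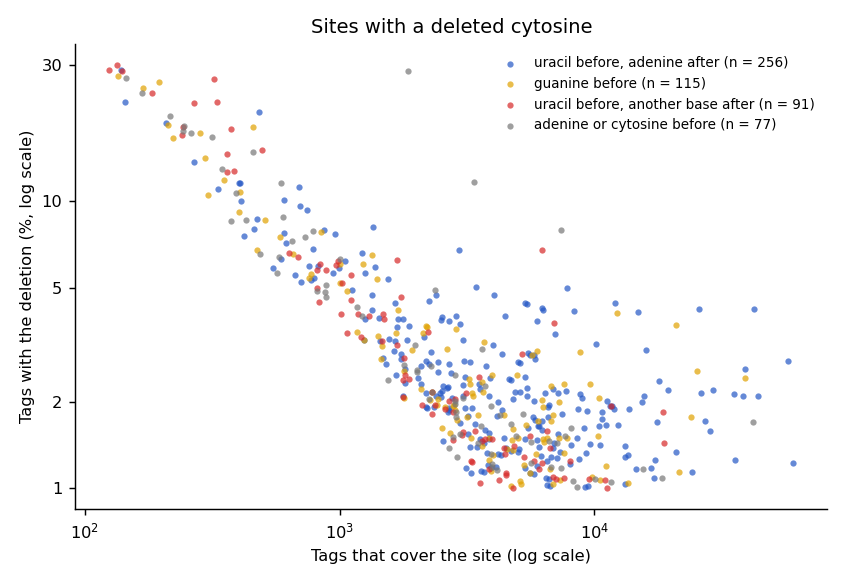
Share of tags with the deletion (%, log scale) against the tags covering the site (log scale), 1 point for each of the 539 cytosine sites, coloured by the bases around the cytosine. The empty lower left follows from the minimum of 32 deletions at any site, and TMEM123 stands apart at 1848 tags and 28.5%.

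The TTCA context differed with the percentage and with the number of deletions. It held 17.1% of the 815 listed cytosines at 1% or below and 14.5% of the 808 at 30% or above, beside the 46.6% within the range. Inside the range it held 55.8% (48.9 to 62.6%) of the 197 sites between 2 and 5% and 16.7% (8.70 to 29.6%) of the 48 sites between 10 and 30%. Sites with at least 100 deletions had it in 65.4% (57.7 to 72.4%) and sites with fewer in 38.7% (33.9 to 43.7%). It was about as common in 3′ UTRs within 100 nt of an end (46.7%) as further inside (50.4%).

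By place, 490 of the 539 cytosine sites lay in 3′ UTRs (90.9%, 88.2 to 93.1%) and 95.4% of the uracil sites did, a difference of -4.48 percentage points (-7.24 to -2.29). The sites outside were 21 in no annotated gene on their strand (3.90% against 1.59%), 15 in noncoding exons (2.78% against 1.27%), 10 in introns, 2 in coding sequence and 1 in a 5′ UTR. The sign of the 3′ UTR difference depended on which uracil sites were compared: with single bases alone, cytosine or uracil, it was 9.09, and 233 of 281 single uracils lay in 3′ UTRs. Of the 21 sites outside genes, 7 lay within 1000 nt downstream of an annotated gene end and 15 within 5000 nt, and the closest was 3 nt beyond the end of ITGB1. Of 153 such uracil sites, 77 lay within 1000 nt and 122 within 5000 nt. The median distance was 2519 nt for the cytosine sites and 880 nt for the uracil sites. The 7 cytosine sites followed ITGB1, RIMOC1, NIP7, the mitochondrial gene MT-ND5 and the pseudogenes RPL15P3, SNRPGP4 and MT1XP1. Pseudogenes, RPS2P35 for example, also preceded uracil sites. The sequence around the site beyond MT1XP1 repeated most of that around the MT1X site. Whether tags of related genes were placed at pseudogenes was not tested.

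Within 3′ UTRs the median distance to the nearest annotated transcript end downstream was 28 nt (quartiles 14 and 217) for cytosine sites and 34 nt (14 and 134) for uracil sites. Within 30 nt of an end lay 51.4% of the cytosine sites and 45.4% of the uracil sites, a difference of 6.06 points (1.52 to 10.6). Within 100 nt the shares were 71.2 and 73.3%, and the interval of that difference spanned 0 (-6.36 to 1.84). The direction of the 100-nt difference turned with the choice of sites: it was -7.78 (-12.1 to -3.75) with 1 site per base and gene and 6.14 (0.452 to 11.6) in genes with both bases. The study's protocol adds a poly(A) tail and primes with oligo(dT), and RNA ends with their own tail can be primed too. Whether this shaped the distances was not tested.

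A poly(A) hexamer, AATAAA or ATTAAA, lay in the 51-nt window of 402 cytosine sites (74.6%) and of 66.1% of the uracil sites, a difference of 8.47 points (4.52 to 12.1). With 1 site per base and gene, the one with the most deletions, the difference was -1.44 (-5.48 to 2.26). In genes with both bases it was 8.91 (3.45 to 14.1), so the excess depended on the choice of sites. Where a hexamer was present, it began after the deletion in 221 of 402 cytosine sites and 3463 of 6399 uracil sites, with median offsets of 1 and 2 nt. At the cytosine sites it began directly after the deleted cytosine in 62 sites, the commonest offset, and 55 of these were cytosines between uracil and adenine: TTCAATAAA occurred at 31 sites and TTCATTAAA at 24. TTCA was common with and without a hexamer: it held 38.0% (30.3 to 46.3%) of the 137 cytosine sites with none in the window and 49.5% (44.6 to 54.4%) of those with one.

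Cytosine sites had close neighbours in the list. A site with another deleted base lay within 10 nt of 46.0% of them and of 20.1% of the uracil sites, a difference of 25.9 points (21.7 to 30.2), which was 14.5 (9.60 to 19.9) among sites over 2%. Uracil is the commonest deleted base, so a cytosine site has more sites of another base to meet, and counting any base the shares were 46.9 and 37.4%. Directly adjacent sites were found at 14.1% of the cytosine sites. The uracil sites give no measure to set beside this, since a run of uracils is listed once and a listed uracil cannot adjoin another. The nearest other site was a uracil in 74.2% of the 368 cytosine sites that had one within 50 nt, and 31.7% of cytosine sites had none. Among sites with such a neighbour the cytosine held the most deletions of its cluster in 37.0%, against 43.6% for uracil sites, a difference of -6.65 points (-11.6 to -1.47). The uracil neighbour stood most often at 2 nt before the cytosine on the plus strand (14.5% of sites) and at 1 nt before it on the minus strand (16.2%). A uracil run that ends at the cytosine is listed at 1 nt before it on the minus strand, whatever its length. On the plus strand a run of 2 is listed at 2 nt before and a run of 3 at 3 nt, where 6.45% of sites had a uracil neighbour. The shares at these peaks are thus not the same measure.

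**Figure D5:**
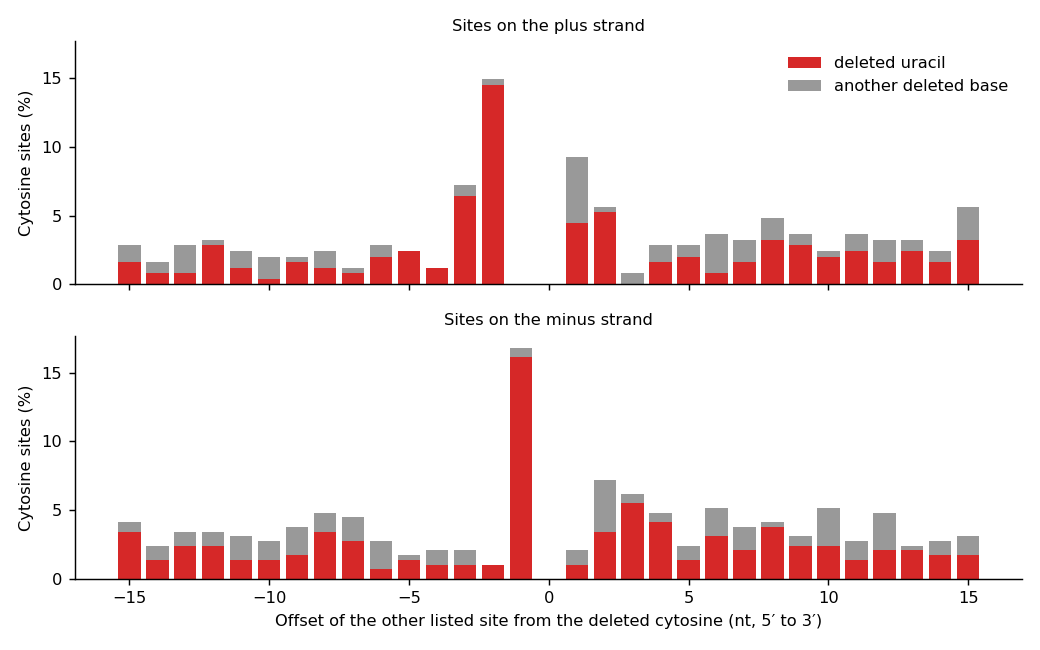
Share of cytosine sites (%) with another listed site at each offset from 15 nt before to 15 nt after, for the plus strand (top) and the minus strand (bottom), divided into deleted uracils and other bases. The peaks before the cytosine hold uracil neighbours in 14.5% of plus-strand and 16.2% of minus-strand sites.

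Among the sites with no neighbour within 50 nt, 4 with many deletions are described because they had neither TTCA nor GGCT. Those outside the mitochondrial genome were these, printed as above.
EMP3, chr19:48330528-48330556, plus: tccaaaaaataaaaCcttaaccgcgggct
TMEM123, chr11:102398653-102398681, minus: taaacatctggatcCttatagaccgttca
EMP3, a membrane protein, had 586 deletions in 7402 tags (7.92%), 11 nt from the transcript end. TMEM123, a membrane glycoprotein, had 526 in 1848 (28.5%, 26.5 to 30.6%), 2335 nt from an end. The other 2 lay on the mitochondrial genome, at position 2282 in the ribosomal RNA MT-RNR2 with 200 deletions in 18401 tags (1.09%), and at position 14425 on the plus strand, opposite MT-ND6, with 395 in 3383 (11.7%). All 4 lay in runs of cytosines, of 2 in EMP3 and TMEM123, 3 in MT-RNR2 and 5 at position 14425. Since a run is listed at its lowest coordinate, the list does not show which of its cytosines was deleted.

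Outside 3′ UTRs the TTCA word also occurred, in 17 of 49 sites (34.7%, 22.9 to 48.7%). The leading examples in coding sequence and in a noncoding exon were these.
LGALS3, chr14:55145241-55145269, plus: cctcaccagtgcttCatataccatgatat
SNHG17, chr20:38420598-38420626, minus: tttacccacccattCaataaaccttacag
LGALS3, which encodes galectin-3, had 155 deletions in 7221 tags (2.15%) in its coding sequence, 158 nt from the transcript end. SNHG17, a host gene of small nucleolar RNAs, had 110 in 1352 (8.14%) directly before an AATAAA hexamer and 9 nt from its end. The other coding site was in MT-ND5, with 47 in 816 tags (5.76%). The leading sites in no annotated gene, apart from the mitochondrial one, were a pair on the minus strand of chromosome 7 at positions 139021523 and 139021510, with 328 deletions in 15622 tags (2.10%) and 306 in 15340 (1.99%), and both stood between uracil and adenine.

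The sites fell in 501 genes, of the 4975 genes with a cytosine or uracil site in the range (10.1%). In 377 of the 501 (75.2%, 71.3 to 78.8%) the gene also had a uracil site, and in 107 of these 377 the cytosine site had more deletions than any uracil site of the gene. A single cytosine site was found in 484 genes and 2 in 17. SSR1, ANTXR2 and SERINC1 had the most deletions among those 17. The second sites of SSR1 and ANTXR2 were far weaker, with 70 deletions in 3339 tags (2.10%) and 37 in 2892 (1.28%). SERINC1, a membrane protein of the serine incorporator family, had 646 in 25146 (2.57%) and 32 in 474 (6.75%), both with a guanine before the cytosine. In 8 of the 17 genes the pair lay within 22 nt. ALDH2, the mitochondrial aldehyde dehydrogenase, had 346 deletions in 8325 tags (4.16%) in TTCAT and 78 in 7291 (1.07%) at 13 nt downstream in AGCT. BTG1, an antiproliferative factor, had 224 in 11566 (1.94%) in TTCT and 112 in 10471 (1.07%) at 10 nt downstream in GGCA.

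Across gene groups the share with a cytosine site was set beside the 10.1% over all genes, as a description. Ribosomal proteins held 5 of 52 genes in the cytosol, led by RPL15, and 4 of 39 in mitochondria, led by MRPL17 (77 deletions in 3215 tags, 2.40%). The nuclear-encoded respiratory chain held 7 of 43, led by ATP5MC3, a subunit of ATP synthase (185 in 17101, 1.08%). Proteasome subunits held 4 of 28, PSMB2, PSMC2, PSMC4 and PSMD2, and all 4 sites had TTCA. The group of actin, tubulin and intermediate filament genes held 4 of 36, ARPC2, LMNA, TUBB6 and VIM, again all with TTCA. Over all 539 cytosine sites TTCA held 46.6%. It held 2 of 5 sites in cytosolic and 1 of 4 in mitochondrial ribosomal proteins, and 4 of 7 in the respiratory chain. Of the groups below, translation factors had it at 3 of 8 sites, splicing factors and hnRNPs at 2 of 5 and endoplasmic reticulum folding at 2 of 3. The 14-3-3, annexin and S100 genes had it at 3 of 4 and the matrix and integrin genes at 0 of 2.

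Translation factors held 7 of 39, led by EIF2S2, a subunit of the factor that brings in the initiator tRNA (111 in 7165, 1.55%). Splicing factors and hnRNPs held 5 of 46, led by HNRNPR (87 in 8227, 1.06%), and endoplasmic reticulum folding genes held 3 of 23, led by the chaperone CANX (117 in 10992, 1.06%). The 14-3-3, annexin and S100 genes held 4 of 18, led by S100A4 (96 in 9470, 1.01%), where TTCA preceded a hexamer directly. The matrix and integrin genes held 2 of 27, led by the protease inhibitor TIMP3 (76 in 6201, 1.23%), and glycolysis held 1 of 9, PGK1 (37 in 3557, 1.04%). Among polyadenylation and decay factors 1 of 25 had a site, the deadenylase CNOT6 (66 in 1700, 3.88%). Of 2 RBMS genes with a site, RBMS1, a paralogue of RBMS3, had a cytosine site with TTCA (41 in 1516, 2.70%, 2.00 to 3.65%), which is printed because it lies in the protein's own family.
RBMS1, chr2:160274563-160274591, minus: aaaacccttaaattCatctagtagctgtt
These group counts are small, and none was read as a departure from the share over all genes.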

How the data were processed

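CLIP-seq of FLAG-tagged RBMS3 was analysed from 1 list of deletion sites pooled over 2 replicates. The deposited values are counts made by the authors, who appended molecular identifiers, aligned the reads to hg38 with the CLIP Tool Kit (version not given in the sources used here) and listed deletion sites with the number of deletions and of overlapping tags, after a false discovery and a fold filter. Library totals were not analysed here, so depth is the tags at each site. The deleted base was the centre of each 21-nt interval, read from hg38. Places came from GENCODE release 44, all transcripts, with 3′ UTR taken first. Shares have 95% Wilson intervals and differences 95% Newcombe intervals, checked on simulated data, and no test was run, since 1 pooled list has no replicate error. The tools were Python 3.11.15 with numpy 2.4.6, pysam 0.24.0, scipy 1.17.1 and matplotlib 3.10.9, and samtools 1.23.1. The sites, words and gene lists were chosen with earlier results of these data known. Named were the 10 sites with the most deletions, the 3 leading genes by number of sites, the leading gene of each list, the 5 leading sites without a neighbour within 50 nt, the 3 leading sites per place, and the sites at each limit, of which 1 is not reported here. Alternatives changed the percentage range, minimum deletions, run handling, window, distance, and 1 site per gene or cluster.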

Additional observations from a re-analysis of the deposited data

How the results depend on the processing

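No paired analysis was possible because all deletions of the single group were summed over its replicates before deposit, and for the same reason no replicate could be left out. Of 62 alternatives over 6 results, 6 set a minimum of 20 deletions that left out no site and 39 others kept the value within its interval. The cause was not tested except where given. Cytosine minus uracil, in percentage points, the 3′ UTR share was -8.09 over 2% and -2.20 under 10%, and reversed to 9.09 with single bases only. The share within 100 nt of an end was -7.78 with 1 site per gene and 6.14 in genes with both bases. The poly(A) hexamer share was 2.59 with 1 site per cluster, -1.44 with 1 site per gene and 2.72 with 50 nt on each side. The uracil-before share was 70.8 with single bases, where a uracil cannot precede a uracil, and, by strand (added after seeing the data), 79.0 on the plus and -44.8 on the minus strand, through the listing of runs at the lowest coordinate. The neighbour share was 32.0 with at least 50 deletions, 14.5 over 2%, 19.8 in genes with both bases and 21.6 within 5 nt. The share of genes that also hold a uracil site was 58.2% over 2% and 6.21% with single bases, which leaves fewer uracil sites. Every site had at least 32 deletions, so rarer deletions at shallow sites were not detectable.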
